A study of Rattus with 6 samples.

Results

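The 10 integrin subunit genes described here are Itga1, Itga3, Itga5, Itga7, Itga8, Itga11, Itgav, Itgb1, Itgb3 and Itgb5, chosen by their symbols among the 21378 genes of the deposited count table. All 10 were found, and all 10 were among the 14412 genes with enough counts to be tested. The study sequenced poly(A)-selected RNA in 6 libraries from rat cardiac fibroblasts, a commercially supplied culture of the matrix-producing cells of the heart. In 3 libraries, titled siNONO, the cells had received an siRNA against Nono by lipofection. The other 3 are titled siCtrl. Their labels also speak of an empty vector, so the control treatment is uncertain. No genotype, strain, animal age or separate harvest time for sequencing is given. For RT-qPCR and western blots the labels state a harvest at 48 h. Whether the replicates were separate cultures is not stated, so that p-values reflect the spread between these libraries alone, which may be technical.

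Integrins are the receptors through which cells hold on to the extracellular matrix. Each receptor is a pair of 1 alpha and 1 beta subunit, and the alpha subunit largely decides which matrix protein is bound. Beta1 (Itgb1) pairs with most of the alpha subunits described here. Alpha1 (Itga1) and alpha11 (Itga11) with beta1 bind collagens, and alpha3 (Itga3) and alpha7 (Itga7) with beta1 bind laminins. Alpha5 (Itga5), alpha8 (Itga8) and alphaV (Itgav) bind proteins that carry an arginine-glycine-aspartate motif, such as fibronectin and vitronectin. AlphaV also pairs with beta3 (Itgb3) and beta5 (Itgb5). In fibroblasts integrins carry contractile force to the matrix, and those with alphaV can release active TGF-beta from its latent complex.

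Total counts per library ranged from 27792357 to 33365588. Nono, the gene targeted, was checked first. Levels are CPM, the count relative to the library size after TMM adjustment, and values of single libraries are given in the order of replicates 1, 2 and 3. Nono had 237, 233 and 247 CPM in siCtrl but 69.9, 76.1 and 73.6 CPM in siNONO, so all siNONO libraries were far below the controls. Its log2 fold change was -1.70 ± 0.05 (standard error, SE; edgeR adjusted p = 4.57e-11). Log2 fold changes here are siNONO minus siCtrl. The test was edgeR's quasi-likelihood F test, its p-values were adjusted over all tested genes by the Benjamini-Hochberg method, and the threshold was 0.05. A gene called raised or lowered passed this threshold. The label of the cells was checked against marker genes. Fibroblast genes were abundant, with Col1a1 at 2429 and Pdgfra at 72.9 FPKM in siCtrl (the deposited values scaled to gene length and library size, which allow levels of different genes to be compared). Of 12 cardiomyocyte markers, Myh7, Myl2, Myl7, Nppa and Mb were not listed. Tnnt2, cardiac troponin T of the same list, stood at 95.6 FPKM in siCtrl and 72.7 in siNONO, and was lowered (-0.45 ± 0.05; edgeR adjusted p = 1.29e-05). Tnni3, cardiac troponin I, was at 0.343 FPKM in siCtrl and Myh6 at 0.01. What part the cells that carry Tnnt2 have in the integrin values was not tested. Macrophage genes were present, with Cd68 at 105 and C1qa at 41.5 FPKM in siCtrl.

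After transfection with the siRNA 5 of the 7 alpha subunits were lowered and 2 of the 3 beta subunits raised. Of the 10 subunits 3 were raised and 5 lowered, against 16.2% raised and 15.9% lowered (32.1% in either direction) over all genes tested. Among the 7 alpha subunits, Itga1, Itga3, Itga5, Itga11 and Itgav were lowered, Itga8 was raised and Itga7 did not pass. Among the 3 beta subunits, Itgb1 and Itgb5 were raised and Itgb3 did not pass. The changes were small, from -0.44 to 0.36 on the log2 scale, with a median of -0.17 beside 0.00 over all tested genes. The median size of the change among all raised genes was 0.30, and among all lowered genes 0.29.

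Abundant genes passed the test more often than scarce ones. Of the 1744 tested genes with a mean of at least 100 CPM, 55.6% passed, and 6 of the 10 subunits (Itgb1, Itga5, Itga1, Itgav, Itga8 and Itgb5) were in this class, all past the threshold. Between 10 and 100 CPM 36.6% of genes passed, and of Itga3 and Itgb3 only the former did. Below 10 CPM 18.3% passed, and of Itga7 and Itga11 only the latter did. CPM values of siCtrl and siNONO did not overlap for 8 of the 10 subunits, against 45% of all tested genes. Of these 8, 4 were higher in siNONO and 4 lower, against 22.9% and 22.1% of all tested genes.

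**Figure D1:**
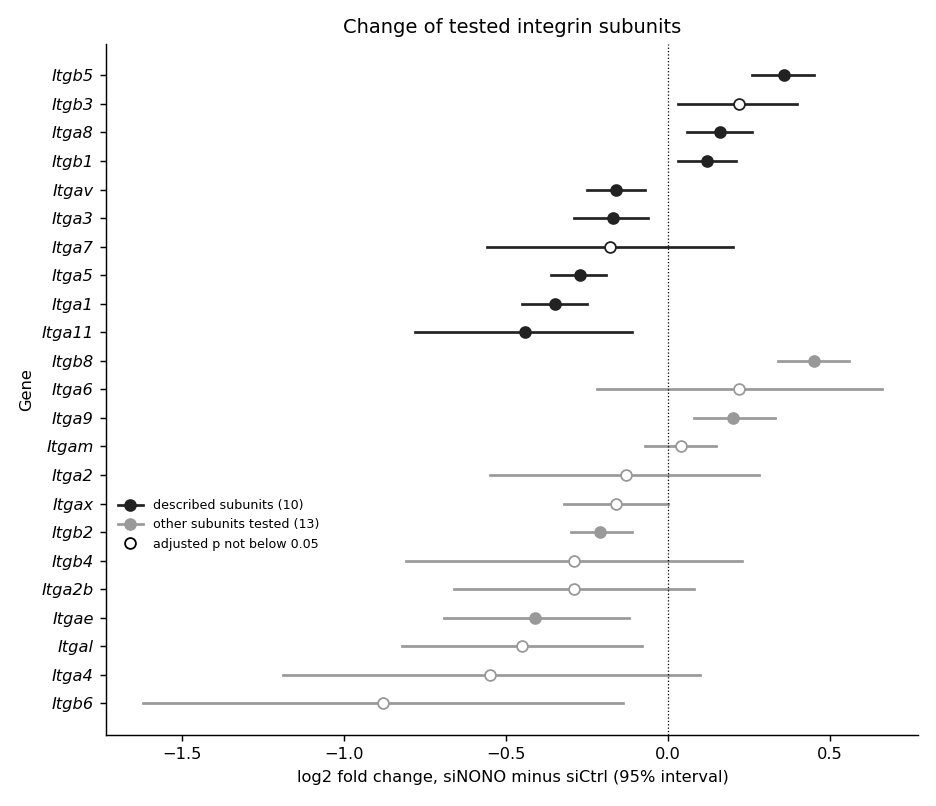
Log2 fold change of each tested integrin subunit (x axis, siNONO minus siCtrl) with its 95% interval from edgeR's quasi-likelihood fit, for the 10 described subunits (black) and 13 others (grey), with open circles for genes that did not pass. The black beta subunits lie to the right of 0, and 6 of the 7 black alpha subunits to the left.

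In control cells the levels per length were dominated by Itgb1, at 248 ± 7.81 FPKM (SD, n = 3). Itga5, the alpha subunit of the classical fibronectin receptor, came next at 49.5 ± 1.90 FPKM, followed by Itgb5 at 26.9 ± 1.34 FPKM. Itga8, Itgav and Itga1 formed a middle group at 18.6 ± 0.797, 18.0 ± 0.594 and 17.1 ± 0.403 FPKM. The ranges of neighbours in this middle group overlapped across the siCtrl libraries, although within each library the order was Itga8, Itgav, Itga1. The lowest Itga8 value (17.67 FPKM) was above the highest Itga1 value (17.52). Itga3 (6.42 ± 0.359 FPKM), Itgb3 (2.89 ± 0.164), Itga11 (1.11 ± 0.312) and Itga7 (0.653 ± 0.142) followed without overlap. After transfection the order by mean was the same, and no neighbours overlapped. Itga8 then stood at 21.5 ± 1.16 FPKM, above Itgav at 16.7 ± 0.751, which in turn was above Itga1 at 13.9 ± 0.912.

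**Figure D2:**
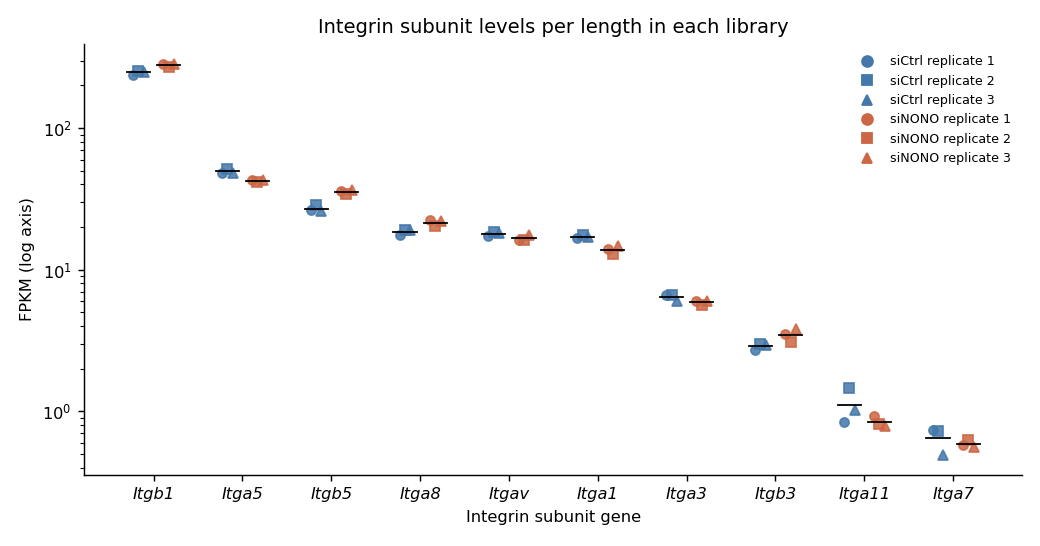
Deposited FPKM of the 10 integrin subunits (log axis) in each library, with siCtrl in blue, siNONO in orange, a marker shape for each replicate and a black line at the group mean. Itgb1 lies far above the rest in all 6 libraries, and Itga8, Itgav and Itga1 separate in siNONO.

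For all 3 beta subunits every siNONO library lay above every control, with test results that differed in strength. Itgb5 (gene-Itgb5, chromosome 11) encodes the partner of alphaV in a vitronectin receptor. Its level was 110.1, 116 and 107 CPM in siCtrl and 142, 138 and 145 CPM in siNONO. Every siNONO library was above every siCtrl library, with a gap of 19.2% between the highest control and the lowest siNONO library. Group means were 111 ± 4.62 and 142 ± 3.60 CPM (SD over 3 libraries). An exact two-sided permutation test gave p = 0.1, which no comparison of 3 with 3 can go below. The log2 fold change was 0.36 ± 0.04 (edgeR adjusted p = 3.68e-05), the largest rise among the 10.

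Itgb1 (gene-Itgb1, chromosome 19), the common beta subunit, was more abundant than 99.2% of tested genes. It was measured at 1040, 1076 and 1065 CPM in siCtrl and at 1160, 1123 and 1178 CPM in siNONO. The groups did not overlap, but the gap between them was 4.30%. The log2 fold change was 0.12 ± 0.04 (edgeR adjusted p = 0.0347), a mean difference of 8.81%. This call rested on the full set of libraries. It ended without siCtrl replicate 1 (adjusted p = 0.0555), 2 (0.0536) or 3 (0.0838), and without siNONO replicate 1 (0.135) or 3 (0.144), with log2 fold changes of 0.10 to 0.14 in these fits and in that without siNONO replicate 2. With upper-quartile factors it also missed the threshold (0.0596).

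Itgb3 (gene-Itgb3, chromosome 10) encodes another partner of alphaV and was far less abundant. It had 10.5, 11.4 and 11.3 CPM in siCtrl and 12.97, 11.5 and 14.1 CPM in siNONO. The highest control and the lowest siNONO library differed by 0.869%, so the groups barely separated. Its log2 fold change of 0.22 ± 0.09 did not pass (edgeR adjusted p = 0.0688), with a 95% interval from 0.03 to 0.40. Without siNONO replicate 2 it passed (0.29; adjusted p = 0.0219), as it did with scaling by total library size (0.27; 0.0353) and with no filter (adjusted p = 0.0391).

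Of the collagen-binding alpha subunits, Itga1 and Itga11 were lowered, Itga2 did not pass (-0.13 ± 0.19; edgeR adjusted p = 0.639) and Itga10 was too low to be tested. The call held for Itga1 in every fit that left out 1 library and for Itga11 in 1 of the 6. Itga1 (gene-Itga1, chromosome 2) had 210.1, 214 and 208 CPM in siCtrl and 167, 155 and 175 CPM in siNONO. All siNONO libraries were below all controls, the nearest pair by 15.9%. The means were 211 ± 3.01 and 166 ± 9.95 CPM, and the log2 fold change -0.35 ± 0.05 (edgeR adjusted p = 7.35e-05). Itga11 (gene-Itga11, chromosome 8), a receptor subunit for fibrillar collagen known from mesenchymal cells, was scarce here. Its values were 5.32, 8.94 and 6.42 CPM in siCtrl and 5.56, 4.97 and 4.72 CPM in siNONO. The groups overlapped, since siCtrl replicate 1 lay below siNONO replicate 1. The log2 fold change of -0.44 ± 0.16 passed narrowly (edgeR adjusted p = 0.0445). It rested on siCtrl replicate 2, the highest library, without which it was -0.22 (adjusted p = 0.233). The call also ended without siCtrl replicate 3 (0.0552) and without siNONO replicate 1 (0.0601), 2 (0.0945) or 3 (0.136). On log2(FPKM + 1) and log2(FPKM + 0.1) it ended too (limma adjusted p = 0.187 and 0.191).

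The subunits that bind the arginine-glycine-aspartate motif moved apart. Itga5 (gene-Itga5, chromosome 7), the most abundant alpha subunit, had 279.6, 289.9 and 273 CPM in siCtrl. It had 233, 231 and 234 CPM in siNONO, all below the controls and within a narrow range. With means of 281 ± 8.55 and 233 ± 1.70 CPM, its log2 fold change was -0.27 ± 0.04 (edgeR adjusted p = 0.000148). Itgav (gene-Itgav, chromosome 3) went from 142, 148 and 146 CPM in siCtrl to 127, 127 and 136 CPM in siNONO. These groups did not overlap, with a gap of 4.18%, and the log2 fold change was -0.16 ± 0.04 (edgeR adjusted p = 0.0121). The call ended without siNONO replicate 1 (-0.14; adjusted p = 0.0702) and with scaling by total library size (-0.11; 0.0846). It also ended in the 3 FPKM fits (limma adjusted p = 0.094 to 0.105).

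Itga8 (gene-Itga8, chromosome 17), an alpha subunit known from mesenchymal and smooth muscle cells, was the one alpha subunit that was raised among the 7. Its level was 118, 124 and 124 CPM in siCtrl and 142, 129 and 139 CPM in siNONO. All siNONO libraries were above the controls, with siNONO replicate 2 nearest to them by 3.96%. The log2 fold change was 0.16 ± 0.05 (edgeR adjusted p = 0.0154). It did not pass without siNONO replicate 1 (0.13; adjusted p = 0.0999) or without siNONO replicate 3 (0.15; 0.0694). As values that moved alongside, 6 of 11 tested markers of pericytes and smooth muscle were lowered and 1 raised, against 15.9% and 16.2% of all genes tested. The other 4 did not pass, among them Pdgfrb (418 CPM in siCtrl and 408 in siNONO). The largest falls in CPM on this list were those of Acta2 (774 to 379) and Tagln (800 to 464), which myofibroblasts also express. The summed level, in CPM of total counts without TMM adjustment, was 2028 to 2081 in siCtrl and 1305 to 1391 in siNONO. Acta2 and Tagln make up most of this sum, so it largely repeats their falls. Rgs5, also on the list, was too low to be tested. The part of such cells in the integrin values was not tested. In cultures sequenced in bulk, fewer cells of a type and less RNA per cell cannot be told apart.

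Of the laminin-binding alpha subunits, 1 was lowered and 1 did not pass. Itga3 (gene-Itga3, chromosome 10) had 37.9, 37.2 and 33.8 CPM in siCtrl and 32.5, 31.0 and 32.99 CPM in siNONO. The gap between siCtrl replicate 3 and siNONO replicate 3 was 2.49%. The log2 fold change of -0.17 ± 0.05 passed (edgeR adjusted p = 0.0259). It did not pass without siCtrl replicate 1 (0.0733) or 2 (0.0797), or without siNONO replicate 1 (0.0648) or 2 (0.0790). Nor did it pass with total library size (-0.12; 0.114) or in the 3 FPKM fits (limma adjusted p = 0.137 to 0.166). Itga7 (gene-Itga7, chromosome 7), best known as the laminin receptor subunit of muscle, was near the lower end of the tested range. It had 3.28, 3.13 and 2.13 CPM in siCtrl and 2.43, 2.68 and 2.34 CPM in siNONO. The groups overlapped, and the log2 fold change of -0.18 ± 0.18 did not pass (edgeR adjusted p = 0.466). Its 95% interval, from -0.56 to 0.20, leaves room for a change in either direction.

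Across the alternatives run, the 10 subunits kept the sign of their change, and 3 of the 8 raised or lowered subunits kept their call throughout. Itga7 passed in none of its 20 alternatives. Itga1 stayed lowered in all 21 alternatives (log2 fold changes from -0.39 to -0.28), Itga5 in all 21 (-0.30 to -0.22), and Itgb5 stayed raised in all 21 (0.33 to 0.41). Scaling bore on the balance between the directions. With total library size alone, 4 subunits were raised and 2 lowered, as Itga3, Itga11 (-0.39; edgeR adjusted p = 0.0785) and Itgav no longer passed and Itgb3 did. In that fit 3174 genes were raised and 1673 lowered over the whole table, against 2338 and 2292 with TMM. On log2(FPKM + 1), which rests on the same totals, 3 subunits were raised and 2 lowered. Leaving out siNONO replicate 1 left 1 subunit raised and 2 lowered. Leaving out siNONO replicate 2 gave 4 raised and 3 lowered, and leaving out siNONO replicate 3 gave 1 and 4. Of the fits without a control, those without siCtrl replicate 1 or 3 each gave 2 raised and 4 lowered, and that without siCtrl replicate 2 gave 2 and 3.

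**Figure D3:**
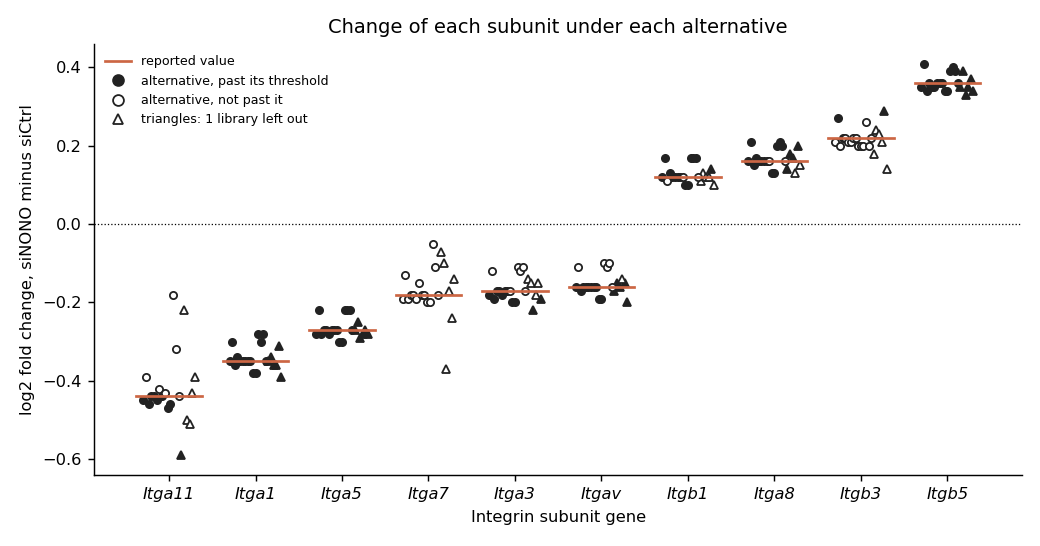
Log2 fold change (y axis, siNONO minus siCtrl) of each of the 10 subunits under each alternative, with an orange line at the reported value, filled symbols where the alternative passed its threshold, open symbols where it did not, and triangles where 1 library was left out. No subunit crosses 0, and the symbols of Itga1, Itga5 and Itgb5 are all filled.

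The make-up of the alpha subunit mRNA was compared per length, as the share of each gene in the summed FPKM of the 7 alpha subunits. Itga8 made up 16.3%, 16.5% and 17.3% in siCtrl and 21.8%, 20.6% and 21.0% in siNONO. It thus gained 4.43 percentage points, and the groups did not overlap. Itga5 made up 44.5% ± 0.407 in siCtrl against 41.7% ± 0.796 in siNONO (SD over 3 libraries), and Itga1 15.3% ± 0.167 and 13.6% ± 0.469, each without overlap. The share of Itgav, at 16.2% ± 0.286 and 16.4% ± 0.486, overlapped between the groups, as did those of Itga3, Itga7 and Itga11. For Itga8, Itga5 and Itga1 the exact two-sided permutation p was 0.1, the smallest possible, and 0.233 after adjustment over the 7 shares. Since Itga8 alone rose among the 7, the rise of its share follows from the changes already described. The shares restate those changes and are not separate evidence of them. Of the 3 beta subunits' summed FPKM, Itgb5 made up 9.71% ± 0.324 in siCtrl and 11.2% ± 0.0263 in siNONO, and Itgb1 89.2% ± 0.314 and 87.7% ± 0.0897 (exact two-sided permutation p = 0.1 each, 0.15 adjusted over 3 shares). Itgb3 made up 1.04% ± 0.0283 and 1.09% ± 0.0855, with overlap.

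Ratios between subunits are given as a description without a test, since subunits seen to rise were set over subunits seen to fall, which fixed their direction. Itgb1 stood at 2.20, 2.20 and 2.27 times the summed FPKM of the 7 alpha subunits in siCtrl and at 2.73, 2.74 and 2.74 times in siNONO. The sum of Itgb3, Itgb5 and Itgb8, the alphaV partners other than beta1 with more than trace levels here, was 1.98 ± 0.0608 times Itgav in siCtrl and 2.84 ± 0.0728 times in siNONO. The ratio of Itga8 to Itga5 was 0.375 ± 0.0147 and 0.507 ± 0.0210. The ratios give neither the amount of protein nor the number of receptor pairs.

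**Figure D4:**
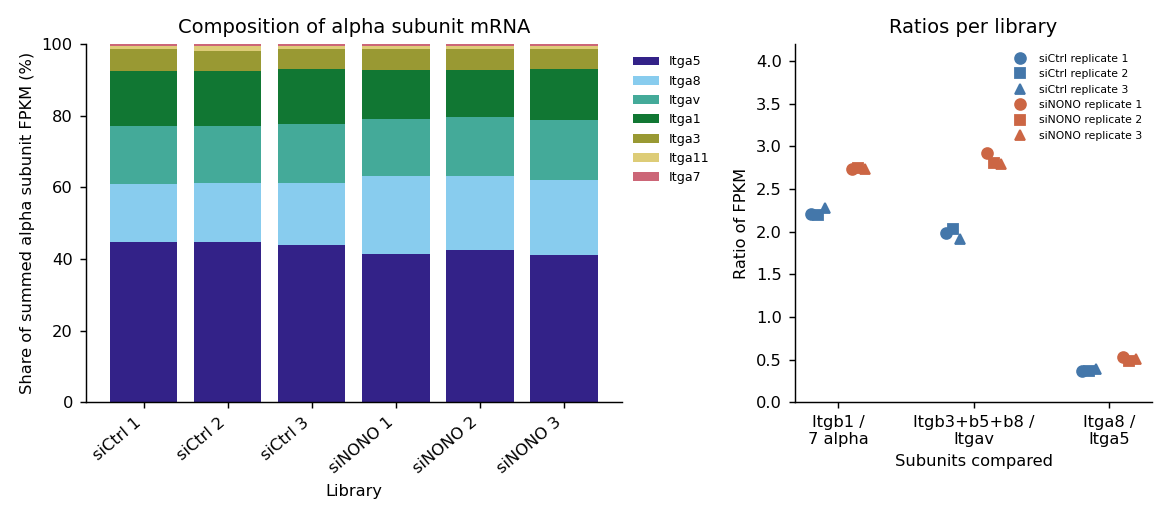
Left, share of each alpha subunit in the summed FPKM of the 7 (stacked bars, 1 per library, in %); right, ratios of FPKM in each library (siCtrl blue, siNONO orange, a marker shape for each replicate). The Itga8 band is wider in the 3 siNONO bars, and all 3 ratios lie higher in siNONO.

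Of the 16 remaining integrin subunits, 13 were tested, of which 2 were raised and 2 lowered. Thus 30.8% passed, close to the 32.1% of all genes tested (16.2% raised, 15.9% lowered). Itgb8, another partner of alphaV known for activating latent TGF-beta, was raised from 53.9 ± 3.13 to 73.7 ± 2.51 CPM (log2 fold change 0.45 ± 0.05; edgeR adjusted p = 1.44e-05). Every siNONO library was above every control, the nearest pair by 23.7%. Itga9, which pairs with beta1 and binds tenascin C among others, was raised from 23.9 ± 1.22 to 27.6 ± 1.19 CPM (0.20 ± 0.06; edgeR adjusted p = 0.0158), a call lost without siNONO replicate 1 (0.0588) or 2 (0.0652) and on log2(FPKM + 0.1) (0.0599). Itgae was lowered (-0.41 ± 0.13; edgeR adjusted p = 0.0304), but not without siCtrl replicate 1 (0.0537), siCtrl replicate 3 (0.123) or siNONO replicate 3 (0.128), nor with total library size (0.0520), the DESeq2 Wald test (0.0510) or the FPKM fits. Itga2, Itga2b, Itga4, Itga6, Itgb4 and Itgb6, which did not pass, had means under 3 CPM in both groups. Of these, Itgb6 (-0.88 ± 0.35) passed without siCtrl replicate 1 (-1.12; edgeR adjusted p = 0.0222), and Itga10, Itgad and Itgb7 were too low to be tested.

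Leukocyte integrins were present at levels within the range of the fibroblast subunits. Itgb2, the beta subunit of leukocytes, stood at 32.8 ± 0.736 FPKM in siCtrl and 29.5 ± 0.983 in siNONO, and was lowered (-0.21 ± 0.04; edgeR adjusted p = 0.00244). In siCtrl this was above Itgb5 per length (26.9 ± 1.34 FPKM) and in siNONO below it (35.6 ± 1.11). Its partners did not pass: Itgam, alphaM of macrophages, had a log2 fold change of 0.04 ± 0.05, Itgax -0.16 ± 0.07 and Itgal -0.45 ± 0.17. Without siCtrl replicate 2, Itgal (-0.62; edgeR adjusted p = 0.00875) and Itgax (-0.22; 0.0455) were lowered, and Itgal was lowered without siNONO replicate 1 (0.0483), with no filter (0.00924), with a gene length correction (0.0427) and in the robust fit (0.0465). Of 14 tested macrophage and leukocyte markers, 6 were lowered and 0 raised, against 15.9% lowered and 16.2% raised over all genes tested. This list holds Itgb2, Itgam, Itgax and Itgal themselves, so it repeats their values in part. Its summed level, in CPM of total counts without TMM adjustment, was 694 to 755 in siCtrl and 658 to 700.1 in siNONO. The TMM factors were 0.9668 to 0.9945 in siCtrl and 1.007 to 1.024 in siNONO. TMM adjustment would thus raise the siCtrl sums and lower the siNONO sums, so the overlap holds for total counts only. Cd3e was not listed. The part of these cells in the levels of the 10 subunits was not tested.

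Genes for integrin ligands changed in both directions. Of 40 on the list 36 were tested, of which 8 were raised and 14 lowered, with a median log2 fold change of -0.01. Thus 61.1% passed, beside 32.1% of all genes (16.2% raised, 15.9% lowered). Many of these ligands were abundant, and of all tested genes with a mean of at least 100 CPM 55.6% passed (23.2% raised, 32.3% lowered). The balance of the directions depended on the scaling, with 12 raised and 12 lowered with total library size and 10 and 10 on log2(FPKM + 1). Without siNONO replicate 1, 5 were raised, and without siNONO replicate 3, 4. Tnc, tenascin C, was raised by 0.51 ± 0.04 (SE), Col5a2, a chain of collagen V, by 0.44 ± 0.04, and Ltbp1, which anchors latent TGF-beta in the matrix, by 0.42 ± 0.05 on the log2 scale. Tgfbi, a matrix protein bound by integrins, was lowered (-1.21 ± 0.13), as were osteopontin (Spp1, -0.90 ± 0.07) and periostin (Postn, -0.64 ± 0.05). The main ligand of alpha5 beta1, fibronectin (Fn1, singled out here), did not pass (0.12 ± 0.05; edgeR adjusted p = 0.102), though it did without siCtrl replicate 2 (0.18; adjusted p = 0.0218), with total library size (0.17; 0.0269) and with no filter (0.13; 0.00642). It was chosen once its values were known.

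Genes that switch integrins on from inside the cell or tie them to actin passed about as often as all genes tested. Of 40 tested activation and adhesion adaptors 6 were raised and 8 lowered (median log2 fold change 0.00). Thus 35% passed, beside 32.1% of all genes. Many of these adaptors were abundant as well. Of all tested genes, 55.6% passed at a mean of at least 100 CPM and 36.6% between 10 and 100 CPM. With total library size and in each of the 3 FPKM fits 8 were raised and 5 lowered, so the balance turned, and with a gene length correction 7 were raised and 13 lowered. Ptk2b, a kinase related to focal adhesion kinase, was raised from 39.7 ± 1.41 to 53.4 ± 0.235 CPM (0.43 ± 0.05), and the adaptor Parva by 0.19 ± 0.04 on the log2 scale. Lims2, an adaptor bound by integrin-linked kinase, was lowered from 25.4 ± 0.644 to 15.2 ± 1.08 CPM (-0.74 ± 0.06), followed by the scaffold genes Bcar1 (-0.29 ± 0.04) and Git1 (-0.22 ± 0.05). Tln1 and Fermt2, which encode a talin and a kindlin that bind beta subunit tails directly and were named after their values were seen, did not pass. Tln1 (0.11 ± 0.04; edgeR adjusted p = 0.0541) passed without siNONO replicate 2 (0.13; 0.0423), with total library size (0.16; 0.00958), and in the voom, robust and FPKM fits. Fermt2 (-0.10 ± 0.05; edgeR adjusted p = 0.104) passed without siCtrl replicate 1 (-0.14; 0.0184) and with the gene length correction (-0.12; 0.0270).

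Membrane partners and trafficking genes were tested in 27 of 27 cases, of which 5 were raised and 7 lowered (median log2 fold change -0.08). Thus 44.4% passed, beside 32.1% of all genes (16.2% raised, 15.9% lowered). Many of these genes were abundant too, and of all tested genes with a mean of at least 100 CPM 55.6% passed. The raised count was 3 without siCtrl replicate 2 or 3 and without siNONO replicate 1 or 2, and 8 with total library size, where 7 were lowered. The tetraspanin gene Cd9 was raised by 0.28 ± 0.04, Cd47, which associates with alphaV beta3, by 0.22 ± 0.05, and the syndecan Sdc4, a co-receptor for fibronectin, by 0.21 ± 0.05 on the log2 scale. Galectin 1 (Lgals1, -0.31 ± 0.05), the tetraspanin gene Cd82 (-0.30 ± 0.04) and the urokinase receptor gene Plaur (-0.29 ± 0.05) were lowered.

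For the subunits with the largest rise and the largest fall, the most alike profiles over the 6 libraries were looked up. Likeness was measured as the root-mean-square difference in log2 CPM, each gene set relative to its own siCtrl mean, among 10073 genes with at least 5 CPM. Mcm4 (0.0215), Nme7 (0.0216) and Pip4k2a (0.0222) were closest to Itgb5, and 630 genes lay within 0.1 of it. Slc13a4 (0.131), Slc22a5 (0.142) and Spef1 (0.147) were closest to Itga11, the member with the largest fall, and 0 genes lay within 0.1. That rank rests on siCtrl replicate 2, without which Itga11 was at -0.22 and Itga1, at -0.34, had the largest fall of the 10.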

How the data were processed

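The members and gene lists were chosen with earlier results of these data known. Poly(A)-selected RNA went into a stranded mRNA kit, per the labels' protocols. HISAT2, edgeR and genome build mRatBN7.2 are named in the submitters' processing notes. Versions, the read counter and its strand setting are not given there, which leaves overlapping and antisense genes uncertain.

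The deposited raw read counts per gene were the basis of all tests. The deposited FPKM values, scaled by the authors to gene length and library total, were used to compare levels between genes and in alternatives. For FPKM of 0.1 or more the gene length follows from the ratio of count to FPKM, and 98.2% of tested genes had one. The files give no gene positions.

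Total counts were 27792357 to 33365588 per library, so a count of 0 allows up to 3 counts, or 0.0899 to 0.108 CPM (counting error only). No library was a copy of another in its group (chi-square / df 3.18 to 7.58). Samples were grouped by title. R 4.3.3 and edgeR 4.0.16 were used: filterByExpr (14412 genes), TMM, estimateDisp, glmQLFit and glmQLFTest, two-sided, 4 residual degrees of freedom, Benjamini-Hochberg adjustment. SE is the log2 fold change over the square root of F. Shares were compared by exact permutation (scipy 1.17.1).

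Named by rule were all tested integrin subunits, from each of the other 3 gene lists the up to 3 raised and 3 lowered genes with the largest change at a mean of at least 5 CPM, and the 3 genes most alike to the members with the largest rise and fall. A gene that this rule selects is not reported here. The marker lists for endothelial cells (1 raised, 0 lowered of 8 tested), cardiomyocytes (0 and 1 of 2), epicardial and mesothelial cells (3 and 1 of 7), platelets (0 and 1 of 4) and fibroblasts (1 and 5 of 12) were read from the same fit. Over all tested genes 16.2% were raised and 15.9% lowered.

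Fits were tested on simulated data. Alternatives were other scalings, filters and tests (DESeq2 1.42.0, limma 3.58.1), a replicate block, a gene length correction, FPKM scales, leaving out each library, and an adjusted p under 0.01.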

Additional observations from a re-analysis of the deposited data

How the results depend on the processing

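No paired design is stated, and same-numbered libraries did not deviate together (correlations of deviations from the group means of -0.0472, -0.0861 and -0.00683 for numbers 1, 2 and 3). With the replicate number as a block, 1 subunit was raised (Itgb5) and 3 were lowered (Itga1, Itga5 and Itgav). In that fit the other subunits lowered were 1, the ligands raised 5 and the membrane partners raised 3. With a threshold of 0.01, 1 subunit was raised and 2 lowered (1428 and 1424 of all genes), 1 of the other subunits was raised and 1 lowered, 4 ligands were raised and 3 membrane partners were raised. With total library size, 2 subunits, 1 of the other subunits and 5 adaptors were lowered, and 8 membrane partners were raised. On log2(FPKM + 1), log2(FPKM + 0.1) and genes with at least 1 FPKM in 3 libraries, 2 subunits, 1 of the other subunits and 5 adaptors were lowered in each. With log2(FPKM + 0.1), and with the filter at 1 FPKM, 1 of the other subunits was raised, and with that filter 1424 of all genes were lowered. The DESeq2 Wald test lowered 1 of the other subunits, and a gene length correction lowered 13 adaptors. The causes of these shifts were not tested. Leaving out each library in turn gave 1 to 4 subunits raised and 2 to 4 lowered, 1 to 2 and 1 to 4 of the other subunits, 4 to 9 and 11 to 15 ligands, 5 to 7 and 6 to 8 adaptors, 3 to 5 and 7 to 9 membrane partners, and 1675 to 2243 raised and 1694 to 2143 lowered of all genes. Over the same fits the change in share ran from -0.136 to 0.169 percentage points for Itga3, -0.0759 to 0.0420 for Itga7 and -0.0118 to 0.466 for Itgav, so their direction was not fixed. The log2 fold change of Itga2 ran from -0.28 to 0.05 (0.05 without siNONO replicate 2), and that of Itga6 from -0.01 (without siNONO replicate 3) to 0.41. Itgb2, Itgb8 and the genes named from the 3 gene lists by rule kept their call in all 21 alternatives. Itga7 had 69 to 89 counts per library, which limits its precision, and Itga11 ranged from 143 to 254 counts over the siCtrl libraries.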
